A study of Mus musculus with 6 samples.

Results

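Integrins are cell-surface receptors built from an alpha and a beta subunit, and they tie the extracellular matrix outside the cell to actin inside it. The alpha subunit largely sets which ligand is bound, and the tail of the beta subunit binds talin and kindlin, which switch the receptor on. The beta1 subunit pairs with many alpha subunits to bind collagens, laminins and fibronectin, the alphav subunit pairs with beta1, beta3 or beta5 to bind fibronectin and vitronectin, and beta7 serves mainly on lymphocytes. The genes described here are 10 integrin subunits, taken by name from the 30828 target IDs of the deposited array table, and all 10 have a target. They are the alpha subunits Itga1, Itga3, Itga5, Itga6, Itga7 and Itgav (target IDs ITGA1, ITGA3, ITGA5, ITGA6, ITGA7 and ITGAV) and the beta subunits Itgb1, Itgb3, Itgb5 and Itgb7 (ITGB1, ITGB3, ITGB5 and ITGB7).

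The cells were MC38, a mouse colorectal cancer cell line. One group of 3 samples had received 50 µM eicosapentaenoic acid (EPA) as the unesterified omega-3 fatty acid for 24 h, and the other group of 3 samples were controls. All were grown in RPMI with foetal calf serum, and the total RNA of each was read on 1 Illumina mouse bead array. Vehicle and duration are not labelled for the controls, and effects of these cannot be told apart from an effect of EPA. Separate cultures are not stated for the samples of a group, so the p-values speak only to the spread among these samples, possibly a technical one.

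The values are quantile-normalised intensities on a linear scale, with a median of 35.2 on each of the 6 arrays. A background limit of 39.4 was taken from the lower side of the intensity distribution, and a gene was tested if its target exceeded it on all 3 arrays of at least 1 group, which left 9290 named genes. Log2 intensities agreed more closely within groups (correlations across genes of 0.994 to 0.997) than between groups (0.983 to 0.985). Of 9 markers of epithelium and colon, 2 passed the background filter (Lgals4 and Krt8), and Epcam, Krt18, Krt19, Cdh1, Vil1, Cdx2 and Muc2 did not, so most defining markers of the labelled tissue were not above background.

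Of the 10 subunits, 7 rose with EPA, 0 fell, 1 was tested without passing, and 2 were not above background. Against this, limma called 18.4% of all tested genes higher with EPA and 15.6% lower (adjusted p under 0.05, Benjamini-Hochberg over 9290 genes), 34.0% in all. The risers were Itgb1, Itga3, Itga5, Itga7, Itgav, Itgb5 and Itgb7, with rises of 1.40-fold to 1.70-fold. Among the 6 subunits above the limit on all 6 arrays, where brightness in 1 group cannot have decided entry to the test, 6 rose, while 19.6% of the 8522 genes filtered in that way were called higher. All EPA arrays lay above all control arrays for 7 of the 8 subunits tested, as they did for 24.9% of all tested genes. The 10 subunits were chosen with earlier results of these data known, so these counts describe the list and do not test it.

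**Figure D1:**
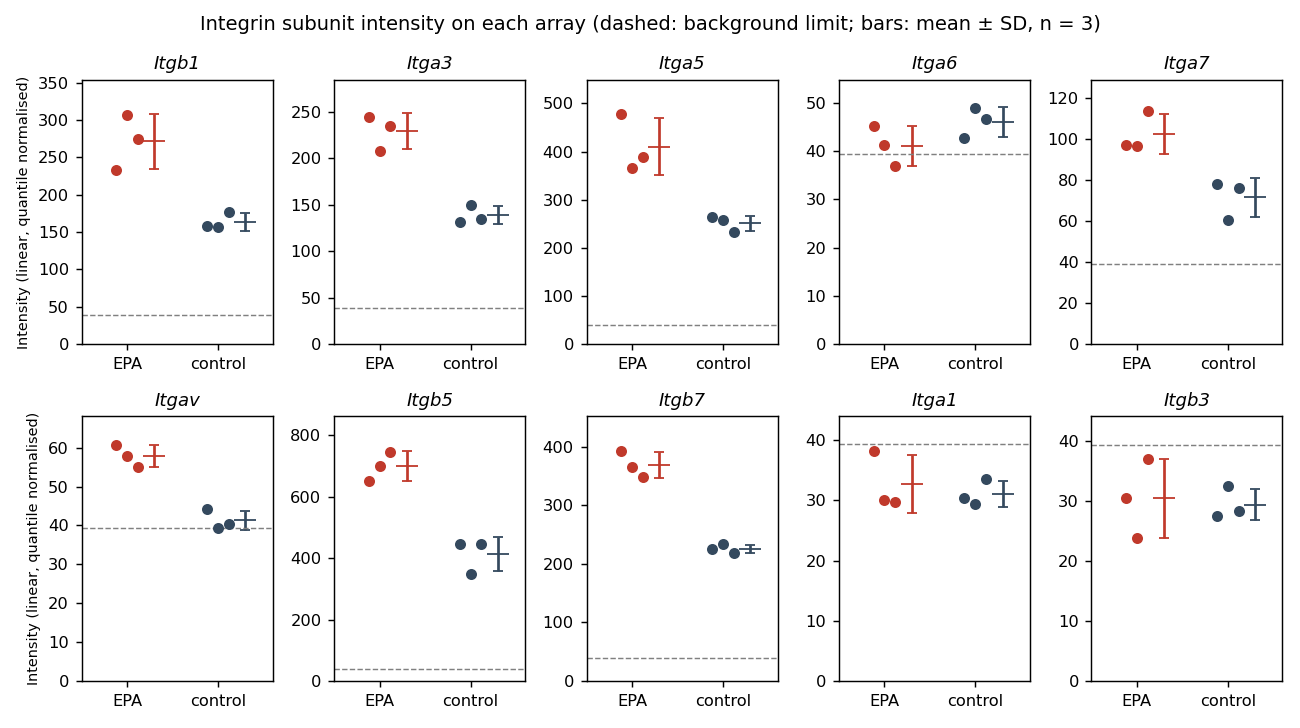
Intensity of each of the 10 integrin subunits on the 3 EPA arrays (red) and the 3 control arrays (dark), on linear axes from 0, with mean ± SD beside the points and the background limit of 39.4 dashed. EPA arrays lie above all control arrays in Itgb1, Itga3, Itga5, Itga7, Itgav, Itgb5 and Itgb7, and the groups overlap in Itga6, Itga1 and Itgb3.

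Upstream sequence is shown for 2 pairs of partner subunits that rose, Itga5 with Itgb1 (the fibronectin receptor) and Itgav with Itgb5 (a vitronectin receptor), so that the start regions of genes moving in the same direction can be compared. Each is the 250 bases before the RefSeq start (GRCm38.p6), 5′ to 3′ on the strand of the gene, and capitals mark matches on either strand to the motifs named after them.
Itga5, chr15:103366792-103367041, minus strand: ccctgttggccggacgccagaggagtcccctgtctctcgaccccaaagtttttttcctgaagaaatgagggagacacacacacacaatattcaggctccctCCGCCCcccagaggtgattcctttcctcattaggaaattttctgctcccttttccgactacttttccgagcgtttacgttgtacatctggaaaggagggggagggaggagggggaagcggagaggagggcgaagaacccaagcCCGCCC
Itgb1, chr8:128685404-128685653, plus strand: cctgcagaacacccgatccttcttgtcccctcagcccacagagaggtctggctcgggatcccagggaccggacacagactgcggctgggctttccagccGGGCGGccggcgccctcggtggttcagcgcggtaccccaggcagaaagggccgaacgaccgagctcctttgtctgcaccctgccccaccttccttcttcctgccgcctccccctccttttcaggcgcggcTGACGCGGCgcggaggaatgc
Itgav, chr2:83724147-83724396, plus strand: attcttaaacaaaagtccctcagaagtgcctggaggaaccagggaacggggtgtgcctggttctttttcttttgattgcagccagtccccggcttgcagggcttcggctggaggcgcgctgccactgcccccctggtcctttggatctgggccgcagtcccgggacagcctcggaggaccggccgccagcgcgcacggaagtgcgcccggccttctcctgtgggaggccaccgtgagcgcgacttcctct
Itgb5, chr16:33829415-33829664, plus strand: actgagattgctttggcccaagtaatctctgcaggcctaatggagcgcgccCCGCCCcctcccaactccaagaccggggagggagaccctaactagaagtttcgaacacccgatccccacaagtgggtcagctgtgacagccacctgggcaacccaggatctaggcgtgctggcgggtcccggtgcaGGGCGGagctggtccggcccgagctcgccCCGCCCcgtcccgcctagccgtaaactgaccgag

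RefSeq upstream sequence was at hand for 6 of the 7 risers, all but Itga7. A GC box (GGGCGG), the site read by SP-family factors, stood in 4 of these 6, with 2 matches in Itga5, 1 in Itgb1, 3 in Itgb5 and 3 in Itga3, whereas 32.9% of 27025 promoters of the same length hold at least 1. Itgav and Itgb7 had no match to any motif searched. The searches for CCAAT, for a TATA box (TATAAA), for an AP-1 site (TGANTCA), for a cAMP response element (TGACGTCA), for a PPAR half-site (AGGTCA) and for an E-box (CACGTG) gave 0 matches in the 6 sequences, and these motifs occur in 34.5%, 13.0%, 6.9%, 1.6%, 13.8% and 6.0% of all promoters in that order. The letters of an antioxidant response element (TGACNNNGC) occur once, in Itgb1, and in 10.1% of all promoters. The 4 printed sequences hold 55.6% to 68.0% G and C, against a median of 52.0% over all promoters, and a match in these windows is a run of letters, not a measured binding site.

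Itgb1 encodes the beta1 subunit, the common partner of most matrix-binding alpha subunits. Its intensity was 234, 307 and 275 on the EPA arrays, against 158, 156 and 177 on the control arrays. The lowest EPA array was 56.2 units above the highest control array. The rise was 1.65-fold (log2 0.72, SE 0.105, limma adjusted p = 0.00077).

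Itga3, a laminin-binding partner of beta1, read 245, 207 and 234 with EPA, against 131, 150 and 135 in controls. The groups did not overlap, and the rise was 1.65-fold (log2 0.72, SE 0.0883, limma adjusted p = 0.000294). Itga5, which with beta1 forms the classical fibronectin receptor, read 477, 365 and 388 with EPA, against 263, 258 and 234 in controls. It rose 1.62-fold (log2 0.70, SE 0.105, limma adjusted p = 0.000928), with EPA replicate 1 well above the other EPA arrays. The same array was the lowest EPA array for Itgb1, so the subunits of this receptor did not share an order over the EPA samples.

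Itga7, a laminin-binding partner of beta1 known best from muscle, read 97.5, 96.7 and 114 with EPA, against 78.3, 60.7 and 76.3 in controls. It rose 1.44-fold (log2 0.52, SE 0.111, limma adjusted p = 0.00574), the largest adjusted p among the 7 risers. Its call was lost when the filter on dim targets was dropped (limma adjusted p = 0.064), the highest value over 15 alternatives, of which the lowest was 0.00368 and 14 kept the call. Its RefSeq extent overlaps the genes Mettl7b, Gm46186 and Gm25494, and whether its probe reads only Itga7 was not tested. The extents of Itga5 (Mir6963), Itgav (Dnmt3l-ps1) and Itga1 (Pelo) also overlap other genes, and their probes were not tested either. Itga6, another laminin-binding alpha subunit, read 45.1, 41.2 and 36.8 with EPA, against 42.7, 48.9 and 46.6 in controls. These values straddle the background limit and overlap, and the log2 fold change of -0.17 did not pass (95% confidence interval -0.38 to 0.04, limma adjusted p = 0.189). Itga6 entered the test through the control arrays, all 3 of which were above the limit, against 2 of the EPA arrays. Itga1, a collagen-binding partner of beta1, stayed below the limit everywhere, at 38.2, 30.1 and 29.7 with EPA and 30.4, 29.4 and 33.5 in controls, so no direction can be given.

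Itgav, the alpha subunit of the vitronectin receptors, read 60.7, 58.0 and 55.0 with EPA, against 44.1, 39.4 and 40.5 in controls. All EPA arrays were above all control arrays, by at least 10.9 units. The rise was 1.40-fold (log2 0.49, SE 0.0776, limma adjusted p = 0.00125). Control replicate 2 was just under the limit, so Itgav passed the filter only through the EPA group. With the background level subtracted from all intensities the rise of Itgav was 2.27-fold. Its target combines 4 probes, and the way the authors combined them is not stated.

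Itgb5, the beta partner of alphav in a vitronectin receptor that also takes part in uptake at the cell surface, read 650, 701 and 747 with EPA, against 445, 349 and 446 in controls. It rose 1.70-fold (log2 0.77, SE 0.107, limma adjusted p = 0.000592), and 98.4% of all tested genes had a smaller log2 fold change. Control replicate 2 was lower than the other controls, and without it the log2 fold change was 0.65. The order of Itgb5, Itgb1, Itga3, Itgb7 and Itga5 by fold changed with the samples left out and with background subtraction, where Itgav, Itga3 and Itgb1 lay above Itgb5, so no order among the risers is given. Itgb3, the other classical partner of alphav, was below the limit on all arrays, at 30.5, 23.9 and 37.1 with EPA and 27.6, 32.5 and 28.3 in controls. Of the 3 beta partners of alphav on the list, Itgb1 and Itgb5 were thus measured as higher, and Itgb3 was not above background in either group.

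Itgb7 pairs with alpha4 or alphaE on lymphocytes. It read 393, 365 and 348 with EPA, against 225, 233 and 219 in controls. This was the rise with the smallest p of the 8 tested, at 1.63-fold (log2 0.71, SE 0.0752, limma adjusted p = 0.000142). Neither partner gene was called higher. Itga4, the alpha4 subunit, was below background on every array, at 30.9, 28.2 and 31.2 with EPA and 28.0, 27.8 and 28.3 in controls. Itgae, the alphaE subunit, was 34.5, 31.8 and 36.3 with EPA, against 46.5, 40.2 and 41.3 in controls. Itgae was called lower (log2 -0.32, limma adjusted p = 0.018), by at least 1.08-fold when the EPA arrays are set at the background limit. It passed the filter only through the control group, where it is higher. The call was lost without EPA replicate 2, without control replicate 1 and without the filter. Of 12 leukocyte markers, 3 passed the filter. Ms4a1, a B-cell gene below background in controls, was at least 1.35-fold higher with EPA (53.4 ± 3.13 against 37.3 ± 1.39, SD, n = 3 each, limma adjusted p = 0.000784). Ms4a1 passed the filter only through the EPA group. Cd68 and Cd14 did not pass, at log2 fold changes of 0.13 and -0.02, and Ptprc, the pan-leukocyte marker, did not pass the filter. The summed intensity of the 12 markers was 520 to 540 on EPA arrays and 487 to 541 on control arrays.

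**Figure D2:**
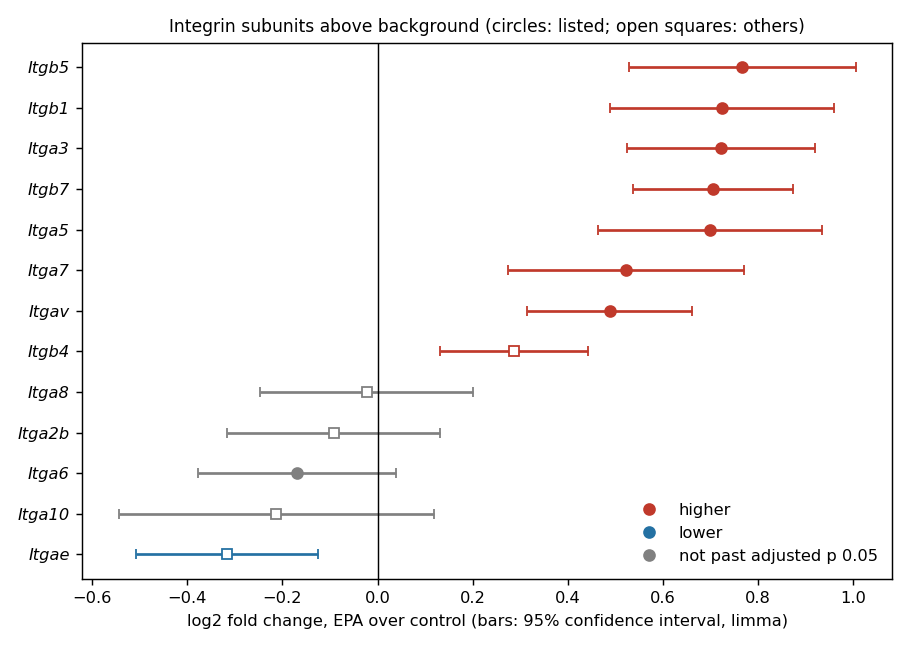
Log2 fold change, EPA over control, with the 95% confidence interval from limma for the 8 listed subunits (filled circles) and the 5 others (open squares) above background. The 7 risers lie between 0.49 and 0.77, and Itgb4 (0.29) and Itgae (-0.32) are the calls among the others.

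Most other integrin genes were below background. Of 16 further alpha and beta subunits with a target, 5 were above background, of which 1 rose, 1 fell (Itgae) and 3 did not pass. These shares are near the 18.4% higher and 15.6% lower of all tested genes. Among genes above the limit on all 6 arrays, 0 of these other subunits were called lower. Itgae was below the limit on every EPA array, so that filter left it untested. Itgb4, the beta partner of alpha6 in hemidesmosomes, read 57.9, 56.8 and 56.8 with EPA, against 47.5, 48.4 and 44.7 in controls. It rose 1.22-fold (log2 0.29, limma adjusted p = 0.0112). Without the filter its log2 fold change was the same and the call was lost. Itga10, Itga2b and Itga8 did not pass, at log2 fold changes of -0.21, -0.09 and -0.02. The leukocyte beta2 subunit Itgb2 and its partners Itgal, Itgam, Itgax and Itgad were below background in both groups. Itgb2 read 36.6, 34.0 and 38.5 with EPA, against 29.6, 25.2 and 31.2 in controls, groups that did not overlap. The authors' deposited table lists Itgb2 at a ratio of 1.27 (raw p = 0.03). Groups also did not overlap for Itgad (24.15, 23.63 and 23.49 with EPA, 25.6, 24.56 and 28.77 in controls) and Itgb8, both with EPA below control. Neither Itgb2, Itgad nor Itgb8 passed the filter, so no direction is given for them. In the authors' deposited table of fold changes are 7 of the 10 subunits, the same 7 as above, with ratios of EPA over control of 1.40 (Itgav) to 1.69 (Itgb5) and raw p-values up to 0.04 (Itga5), the test not being stated.

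Alpha and beta subunits were also compared within each array. Over 6 heterodimers formed among the 8 tested subunits of the list, the log2 ratio of alpha to beta intensity changed by -0.002 for Itga3-Itgb1 and -0.03 for Itga5-Itgb1, well inside the spread of the arrays (SD 0.32 and 0.40 on EPA arrays, 0.17 and 0.19 on control arrays). For Itga7-Itgb1 the change was -0.20 (exact two-sided permutation p = 0.4). For Itgav-Itgb1 and Itgav-Itgb5 it was -0.24 and -0.28 (exact permutation p = 0.3 and 0.2), and both turned positive, at 0.34 and 0.37, with background subtracted, so no order between Itgav and its partners can be given. Among these 6 pairs, Itga6-Itgb1 alone had groups that did not overlap. Its ratio on the EPA arrays lay 0.54 to 1.07 below the control mean, against -0.10 to 0.15 on the control arrays, a change of -0.89. This change follows from the log2 fold changes of Itgb1 (0.72) and Itga6 (-0.17) given above and is not separate evidence. The exact permutation p of 0.1 is the smallest that 3 against 3 arrays allow, or 0.6 adjusted over the 6 pairs, and the Itga6 signal is near background. Pairs with a subunit outside the list, such as Itga6-Itgb4 and Itgae-Itgb7, were not compared.

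**Figure D3:**
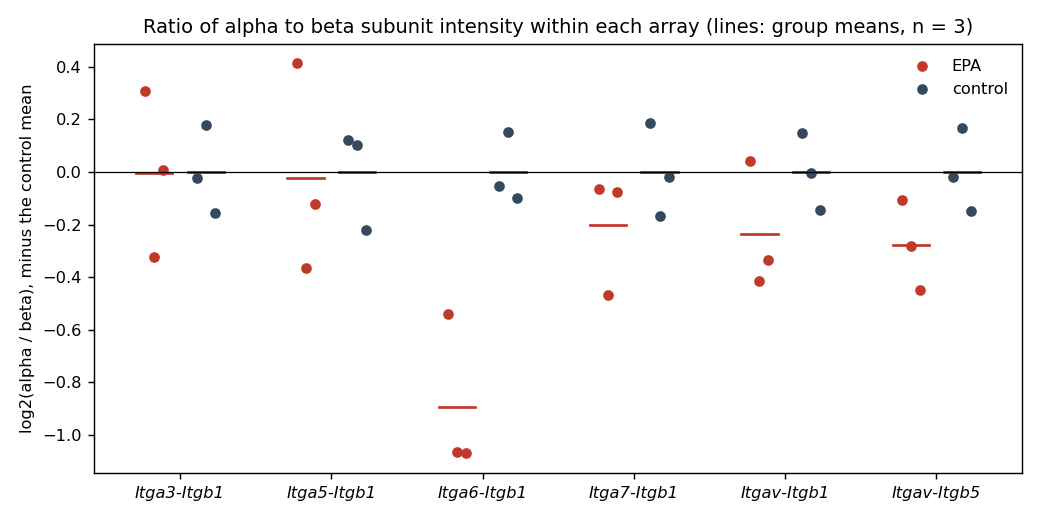
Log2 ratio of alpha to beta subunit intensity on each array, less the control mean, for 6 heterodimers, with EPA (red) left of control (dark) and lines at the group means. Among these 6, Itga6-Itgb1 is the pair whose groups do not overlap, at -0.89, and Itga3-Itgb1 and Itga5-Itgb1 centre near 0.

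Genes for the ligands that integrins bind rose in most cases. Of 44 listed, 28 were measured, and 23 rose, 1 fell and 4 did not pass, with a median log2 fold change of 0.62 against 0.01 over all tested genes. Those called higher were 82.1% and those called lower 3.57%, against 18.4% and 15.6% of all tested genes. Col6a1, a collagen VI chain, rose 2.11-fold (2037 ± 58.6 with EPA, 966 ± 35.6 in controls, SD, n = 3 each). Tgfbi, an adhesion protein bound by alphav and alpha3 integrins, rose 2.35-fold, Col3a1, a fibrillar collagen chain, 2.20-fold, and Tnc, tenascin C, 1.88-fold. The basement membrane genes Col4a1 and Lamc1 rose 2.49-fold and 1.82-fold. Fn1, the gene of fibronectin, the ligand of alpha5beta1, rose 1.47-fold (414 ± 47.7 with EPA, 280 ± 8.44 in controls, limma adjusted p = 0.0015). Vcam1, which alpha4beta7 and alpha4beta1 bind, rose 2.10-fold. The member that fell was Ccn1 (log2 -0.39), a matricellular ligand of alphav integrins. Some fibroblast and mural cell markers moved with these groups. Of 9 listed markers of fibroblasts and endothelium, 3 were measured and 3 rose (Dcn 2.10-fold, Pdgfra 1.78-fold, Pdgfrb 1.53-fold). The fibroblast markers Lum and Thy1 and the endothelial markers Pecam1, Cdh5, Kdr and Tek did not pass the background filter. The summed intensity of the 9 was 1017 to 1044 on EPA arrays and 594 to 632 on control arrays. This sum includes the 3 that rose (Dcn alone averaged 551 with EPA and 263 in controls), so it is not separate evidence. The part of these markers in the result was not tested. In such bulk samples a change in the share of cells of a type and a change in RNA per cell cannot be told apart.

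Genes for surface proteins that associate with integrins in the membrane also rose in most measured cases. Of 17 listed tetraspanins, syndecans and other lateral partners, 13 were measured, and 11 rose, 0 fell and 2 did not pass (median log2 0.57), so that 84.6% were called higher, against 18.4% of all tested genes. Bsg and Ptgfrn are among the 11 and passed the filter only through the EPA group, and 9 were called higher among genes above the limit on all 6 arrays. The tetraspanin Cd81 rose 1.91-fold (5124 ± 517 with EPA, 2680 ± 135 in controls, SD, n = 3 each). Cd151, the tetraspanin that binds alpha3beta1 and alpha6 integrins tightly, rose 1.42-fold, and Cd9 1.53-fold. The syndecans Sdc2 and Sdc1, heparan sulphate co-receptors for matrix, rose 1.86-fold and 1.65-fold, and Plaur, the urokinase receptor, 1.72-fold.

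**Figure D4:**
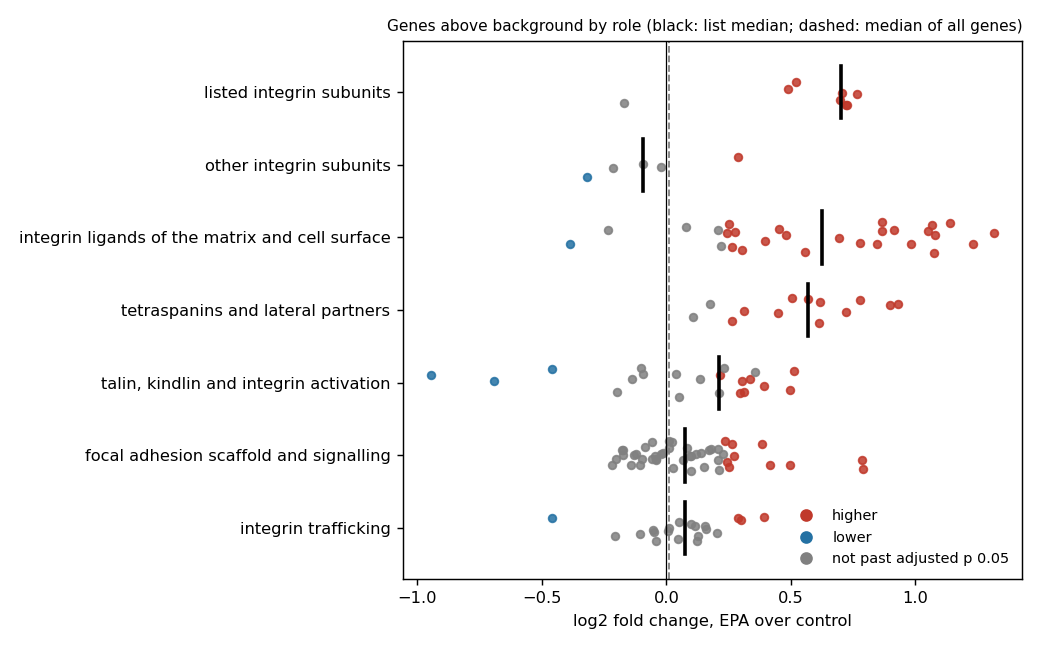
Log2 fold change, EPA over control, of every measured gene in the listed integrins and 6 lists of related genes, coloured by call, with the list median in black and the median of all tested genes (0.01) dashed. The medians are 0.62 for ligands, 0.57 for lateral partners, and between -0.09 and 0.21 for the 4 other lists of related genes; the lists were chosen with earlier results known, and the medians carry no test.

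The cytoplasmic side of the adhesions was more mixed. Among regulators of integrin activation, 8 of 21 measured genes rose, 3 fell and 10 did not pass (median log2 0.21). The share called higher was 38.1%, against 18.4% of all tested genes, and the share called lower was 14.3%, near the 15.6% of all tested genes. Tln1, talin 1, which binds the beta tail to activate it, was called higher at a dim signal, 1.24-fold (51.1 ± 3.77 with EPA, 41.3 ± 3.69 in controls, SD, n = 3 each; limma adjusted p = 0.0245). Tln1 was above the limit on 2 of the control arrays, so it passed the filter only through the EPA group. Fermt2, kindlin 2, its co-activator, rose 1.31-fold (limma adjusted p = 0.0135). Dab2, an endocytic adaptor that binds beta tails, rose 1.43-fold. The 3 that fell were Itgb1bp1, which encodes ICAP1, an inhibitor that competes for the beta1 tail (1046 ± 24.6 with EPA, 1441 ± 95.3 in controls; log2 -0.46, limma adjusted p = 0.00151), Krit1, which binds ICAP1 (log2 -0.94, limma adjusted p = 8.41e-05), and Itgb3bp (log2 -0.69), named for binding the beta3 tail and also a centromere protein. The number of activation genes called higher was 4 without EPA replicate 3 or control replicate 3, 5 without control replicate 1 and 1 without the filter, and the calls of Tln1 and Fermt2 were each lost under several of these settings.

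Of 46 measured scaffold and signalling genes of focal adhesions, 10 rose, 0 fell and 36 did not pass (median log2 0.08), a share of 21.7% higher beside 18.4% of all genes. Vcl, vinculin, which strengthens the link to actin, rose 1.73-fold (2140 ± 140 with EPA, 1237 ± 72.3 in controls, SD, n = 3 each), and Cav1, caveolin 1, 1.72-fold. The actin crosslinkers Actn4 and Actn1 rose 1.41-fold and 1.33-fold. Ptk2, focal adhesion kinase, and Pxn, paxillin, did not pass, at log2 fold changes of 0.14 and -0.06. The number called higher was 6 without EPA replicate 2, EPA replicate 3 or control replicate 1, and 5 without the filter. Of 20 measured genes of integrin trafficking, 3 rose, 1 fell and 16 did not pass (median log2 0.08). These shares of 15% higher and 5% lower are below the 18.4% and 15.6% of all tested genes, so the trafficking genes named next are values and not a result about the list. Rab11b, a GTPase of the recycling route, rose 1.31-fold, Eps8 1.23-fold and Rab5c, of early endosomes, 1.22-fold, and Hax1, which binds the beta6 tail in human cells, fell (log2 -0.46). The call of Rab5c, at a limma adjusted p of 0.0493, was lost under several other settings, and 1 trafficking gene was called higher without the filter.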

How the data were processed

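The deposited series table gives quantile-normalised intensity values per target, and the array exports of the series name GenomeStudio 1.7.0, per the file headers. Probe combination and background treatment by the authors are not stated in the labels or headers. The authors' deposited table adds a ratio, its log2 value and a raw p-value per target. A further 102 per-array columns elsewhere match no sample label and were not used. Depth has no counterpart on arrays, so the number of arrays limits precision.

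Targets were named through RefSeq (GRCm38.p6 gene table), where 16218 matched a symbol, 5703 matched 1 synonym and the remaining 8907 were left unnamed. Background was described by the mode of all intensities (28.0) and the spread below it (SD 6.91), with a one-sided level of 0.05. The brightest target stood for each gene, and log2 intensities were tested with limma 3.58.1 in R 4.3.3 (lmFit, eBayes, two-sided). A fold is a ratio of geometric means, and any background left in the intensities would make it understate changes of dim genes. The fit was tested on simulated data. The members and lists were chosen with earlier results of these data known, and lists get counts and medians, no test. Named are all integrin subunits above background, the 4 genes of lowest p in each list, and measured markers. Chosen after their values were seen were Fn1, Col4a1, Lamc1, Vcam1, Ccn1, Cd151, Cd9, Tln1, Fermt2, Ptk2, Pxn, Bsg, Ptgfrn, Itgb2, Itgad, Itgb8 and Itgbl1. Alternatives changed the filter, background, pseudocount, scaling, variance model, targets per gene, the replicate block and the samples used.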

Additional observations from a re-analysis of the deposited data

How the results depend on the processing

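Over 15 alternative settings, the number of integrin subunits called higher was 7 or 6, and 0 were called lower in any of them. The 6 arose without the filter, where Itga7 lost its call, and with the stricter filter, which leaves Itgav and Itga6 untested. Of 118 recomputed log2 fold changes of the 8 tested subunits, 117 kept direction and call. The lowest log2 fold change of a riser was 0.37 (Itgav, with 16 added to each intensity) and the highest was 1.18 (Itgav, background subtracted). Without the filter, 1313 genes were called (731 higher, 582 lower) of the 19964 tested, and the counts called higher were 1 for activation, 5 for scaffold and signalling, 1 for trafficking and 0 for the other integrins, of which 0 were lower. With the stricter filter, which leaves Itgae untested, 0 other integrins, 1 scaffold gene and 2 trafficking genes were lower. With background subtracted 1 scaffold gene and 2 trafficking genes were lower, and with several targets per gene 1 scaffold target was lower. The cause of these differences was not tested. With background subtracted, the change in log2 ratio was 0.023 for Itga3-Itgb1, 0.34 for Itgav-Itgb1 and 0.37 for Itgav-Itgb5, each opposite in sign to the main value.

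Leaving out 1 array at a time gave 2357 to 2929 called genes. The counts called higher then ran from 4 to 6 for activation and 6 to 11 for scaffold and signalling. The counts called lower ran from 0 to 1 for the other integrins, 1 to 2 for ligands, 3 to 5 for activation and 0 to 1 for scaffold and signalling. The ratio changes ran from -0.16 to 0.16 for Itga3-Itgb1 and from -0.24 to 0.15 for Itga5-Itgb1. The log2 fold change of Itga8 ran from -0.12 to 0.04 and that of Cd14 from -0.071 to 0.076, both without a call. Among 45 other named genes, 640 of 670 values kept direction and call, 23 lost the call, 1 gained it (Lgals4 without control replicate 1) and 6 turned in sign. Deviations of same-numbered EPA and control arrays had correlations of -0.04, -0.19 and 0.11, and those of differently numbered arrays reached -0.218 and 0.246. With 3 arrays per group, such values cannot show whether the samples were paired, and the labels do not state it. With the replicate number as a block, 2929 genes were called and 7 subunits were higher.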

Other observations

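Itgbl1, a secreted protein with integrin beta-like repeats that is not itself a receptor subunit, was looked up after its values were seen. Its intensity averaged 182 ± 9.84 with EPA and 87.3 ± 8.58 in controls (SD, n = 3 each), a 2.09-fold rise.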
